A study of Mus musculus with 10 samples.

Results

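Collagens are the main structural proteins of the extracellular matrix that surrounds a tumor, and their genes were followed in 10 mouse colon tumors, 5 of which had lost Wls, the carrier that Wnt proteins need for secretion, from the epithelium. Every row of the expression table whose name is that of a collagen chain (Col, a type number, a and a chain number) was taken, which gave 28 genes of 16875 gene names: 7 chains of fibrillar types I, III, V and XI, 5 chains of the basement membrane types IV, XV and XVIII, and 16 chains of other types. The same name rule finds 44 genes in the GENCODE M21 annotation, and the other 16, among them Col2a1, Col4a3, Col10a1 and Col11a1, were not analysed here.

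All tumors came from C57BL/6 mice that carried floxed Wls alleles (Wls flox/flox) and were aged 6 to 10 weeks when azoxymethane (AOM), a colon carcinogen, was injected. The mice then drank 2% dextran sulfate sodium (DSS), which inflames the colon, in 3 cycles, and whole tumors were cut from the colon 120 days after AOM. Villin-WlscKO mice also carried Villin-CreERT2, a recombinase that is expressed in intestinal epithelium and activated by tamoxifen, of which they received 5 injections at 80 mg/kg, the first of them 30 days before collection. Tumors without tamoxifen served as control unless the study says otherwise, so that genotype and tamoxifen cannot be told apart. Wls was measured at 61.3 to 79.9 FPKM in control and 2.03 to 11.7 FPKM in Villin-WlscKO tumors, where FPKM is fragments mapped to a gene, scaled to transcript length and to the mapped reads of the tumor. Xist lay at 0.0366 to 0.420 FPKM in the control and at 439 to 701 FPKM in the Villin-WlscKO tumors, and the Y-linked Eif2s3y was high only in the former (30.4 to 46.6 against at most 0.138 FPKM), so that sex and genotype cannot be told apart either. The number of mice behind the tumors is not given, and the p-values measure the spread between these tumors.

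A collagen molecule is a triple helix of 3 chains, which are folded and hydroxylated in the endoplasmic reticulum, secreted, trimmed and crosslinked. Fibrillar collagens form the fibers of the connective tissue, type IV collagen forms the sheet on which epithelium and vessels rest, and the remaining types decorate fibrils, form fine filaments or span the membranes of cells. In the colon, fibroblasts make most of the fibrillar chains, and in tumors the amount and stiffness of this matrix are often raised.

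Among the 28 collagen genes, Col9a2 fell and Col9a3 rose in Villin-WlscKO tumors, and the other 26 did not pass the test. The test was limma on log2(FPKM + 1), two-sided, with a Benjamini-Hochberg adjusted p under 0.05 over the 16757 genes with a mean of at least 0.5 FPKM, which all 28 collagens reached. Of all genes tested, 10.9% passed, 6.12% higher and 4.75% lower in Villin-WlscKO, so that the share of 2 in 28 was not above that of all genes. The split of calls over all genes moved with scaling, from 1026 higher and 796 lower to 1373 and 410 after rescaling to an equal FPKM sum and to 893 and 1125 under quantile normalization. The median log2 change of the collagens was -0.07, with 12 changes above 0 and 16 below, beside a median of 0.0073 over all genes tested. At an unadjusted p under 0.05, 3 of 28 collagens and 4308 of 16757 genes were counted. Groups did not overlap for 1 collagen, Col9a3, while 10.1% of all genes tested showed no overlap.

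The collagens varied more between tumors of one genotype than most genes did. The within-group SD of log2(FPKM + 1) had a median of 0.58 over the collagens and of 0.21 over the 16385 genes in the same range of mean FPKM, and 27 of the 28 collagens, all but Col20a1, lay above that second median. The standard error of a change was 0.33 at the median of the collagens and 0.13 at that of all genes tested, and an interval around a collagen change was wide accordingly.

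**Figure D1:**
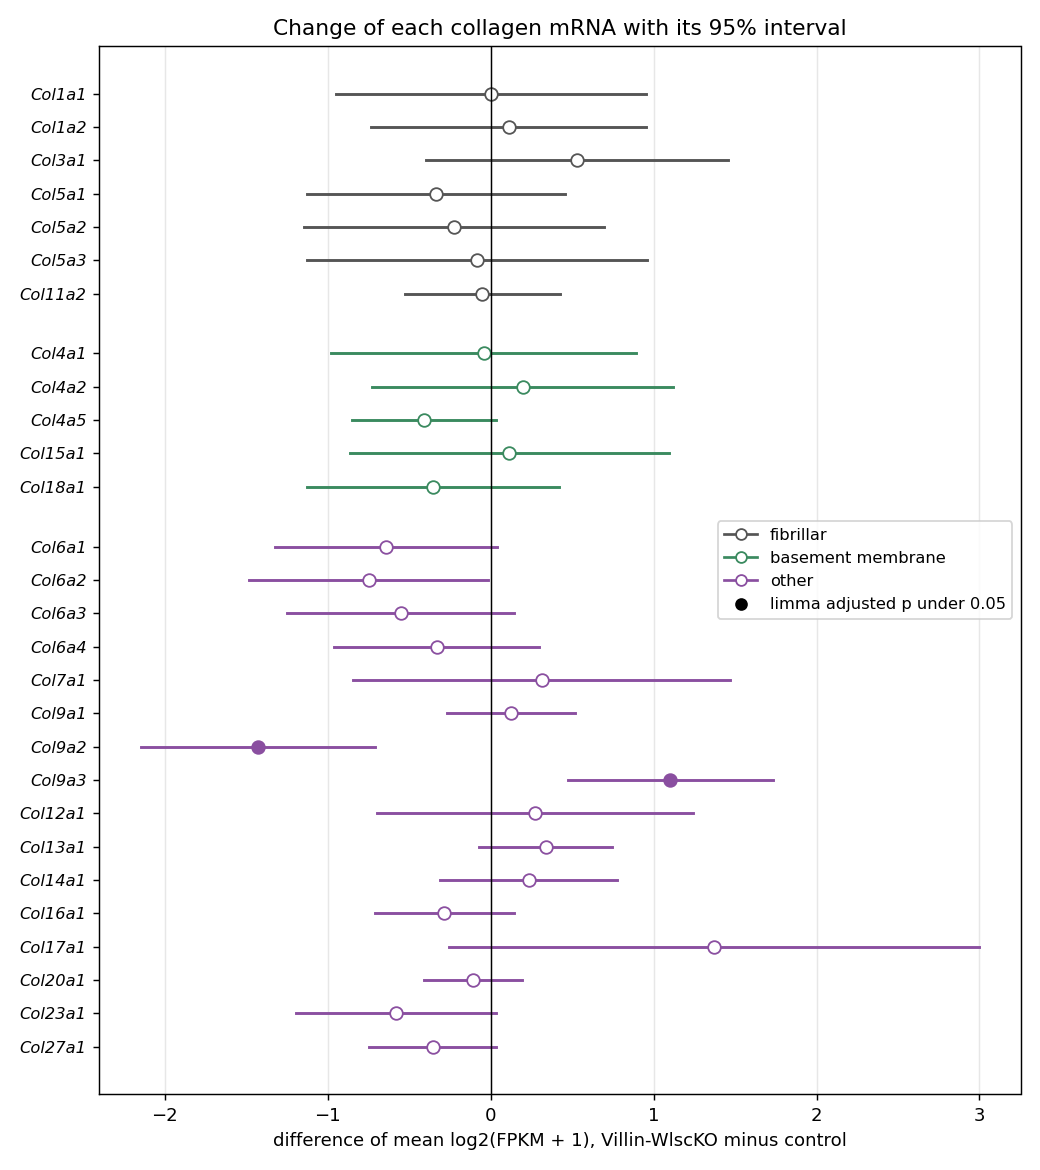
Mean log2(FPKM + 1) of Villin-WlscKO tumors less that of control tumors (x axis), for each of 28 collagen genes (y axis), with points for the estimate and lines for the 95% interval of limma, colored by class and filled where the adjusted p is under 0.05. The filled points are Col9a2 at -1.43 and Col9a3 at 1.102, and Col17a1 has the widest interval, from -0.26 to 2.99.

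Summed over the 28 genes, collagen mRNA amounted to 628, 379, 1189, 766 and 347 FPKM in control tumors 1 to 5 and to 694, 1212, 707, 720 and 418 FPKM in Villin-WlscKO tumors 1 to 5. The groups overlapped almost wholly, with means of 662 ± 343 and 750 ± 287 FPKM (SD, n = 5 each). The fibrillar chains made up most of the sum in every tumor, and one gene, Col3a1, accounted for 39.6% to 61.1% of it in control and 48.2% to 67.4% in Villin-WlscKO tumors. Basement membrane chains summed to 97.5 ± 44.8 and 92.7 ± 40.7 FPKM, and the other chains to 119 ± 32.7 and 102 ± 31.8 FPKM, in the same order of groups.

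Single tumors were high or low for many chains together. Control tumor 3 held the highest value of its group for 15 of the 28 chains and control tumor 5 the lowest for 19. Among Villin-WlscKO tumors, tumors 3 and 2 held the highest value for 14 and 12 chains, and tumor 5 the lowest for 22. Markers of stromal cells ran along with these orders in part. The sum of 9 endothelial markers was 93.0 FPKM in control tumor 3 and 37.3 FPKM in control tumor 5, and in Villin-WlscKO tumors 2 and 5 it was 111 and 36.0 FPKM. The sum of 9 fibroblast markers (Pdgfra, Pdgfrb, Thy1, Dpt and others, none of them a collagen and none at 0 in any tumor) was 40.8 to 78.6 FPKM in control and 27.8 to 76.2 FPKM in Villin-WlscKO tumors, lowest in Villin-WlscKO tumor 5. Among control tumors that sum was highest in tumor 1 and lowest in tumor 2. Smooth muscle markers summed lowest in tumor 1 of each genotype (76.3 and 92.6 FPKM) and highest in control tumor 3 and Villin-WlscKO tumor 4 (166 and 176 FPKM). In bulk tumors fewer cells of a type and less RNA per cell cannot be told apart, and the part of cell composition in these levels was not tested.

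**Figure D2:**
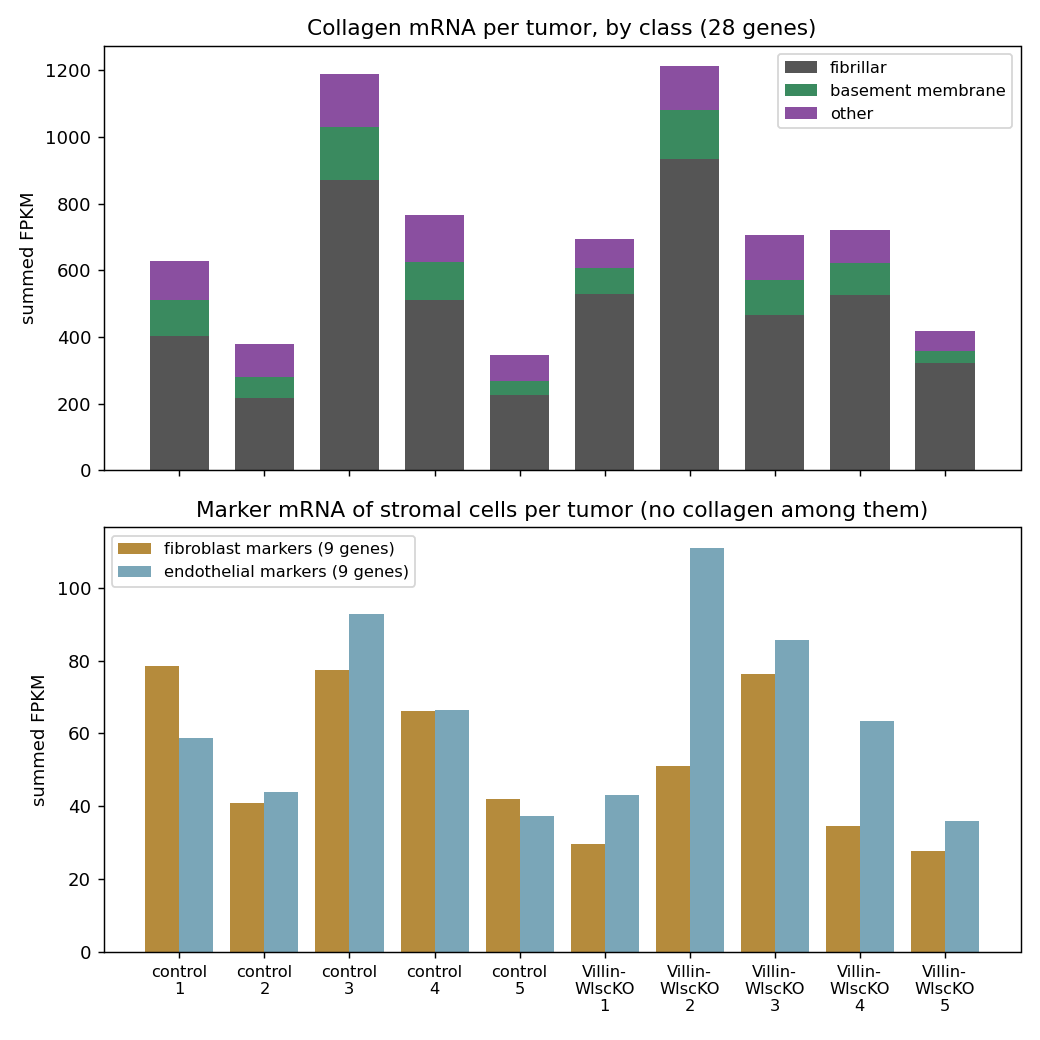
Summed FPKM (y axes) in each of 10 tumors (x axis): above, stacked bars of the fibrillar, basement membrane and other collagen genes, and below, bars of 9 fibroblast and 9 endothelial marker genes. Control tumor 3 and Villin-WlscKO tumor 2 reach 1189 and 1212 FPKM of collagen, control tumor 5 and Villin-WlscKO tumor 5 reach 347 and 418 FPKM, and the same pairs of tumors are at the top and bottom of the endothelial sum.

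Of the 7 fibrillar genes, 0 passed limma's test, beside 10.9% of all genes tested. At an unadjusted p under 0.05 there were also 0, beside 4308 of 16757 genes. The median standard error was 0.41 for these 7 genes and 0.13 over all genes tested, so that a count of 0 says little about them. Their changes were above 0 for 3 and below for 4, and the median change was -0.05. Col3a1, whose product forms homotrimers in soft tissues and mixes with type I in fibrils, was the most abundant collagen in these tumors. Its promoter is shown because this gene alone gave a mean of 50.8% of the collagen sum in control and 61.6% in Villin-WlscKO tumors (RefSeq, GRCm38.p6, chr1:45311288-45311537, plus strand, the 250 bases before the start site, 5′ to 3′, with the letters of TATAA on either strand in capitals).
Col3a1: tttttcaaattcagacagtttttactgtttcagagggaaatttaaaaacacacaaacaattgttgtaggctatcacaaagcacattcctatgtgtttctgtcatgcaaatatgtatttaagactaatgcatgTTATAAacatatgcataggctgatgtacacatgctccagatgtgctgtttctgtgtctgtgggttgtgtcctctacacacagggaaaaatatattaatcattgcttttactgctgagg
Col3a1 stood at 308, 150, 726, 392 and 184 FPKM in control tumors 1 to 5 and at 468, 781, 341, 437 and 282 FPKM in Villin-WlscKO tumors 1 to 5. The highest value of each group belonged to the tumor with the largest collagen sum. Col3a1 itself made up 39.6% to 67.4% of that sum in a tumor, so that its level and the sum are not independent. The groups overlapped over most of their range. The means were 352 ± 231 and 462 ± 193 FPKM, the log2 change was 0.53 ± 0.42 (SE) and limma's adjusted p was 0.474, with a 95% interval from 0.761 to 2.74 as a fold of FPKM + 1. The Col3a1 row had the same values as that of AC125167.1, so both names stand for 1 measurement.

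The chains of type I collagen, the most abundant protein of connective tissue, did not pass the test. Col1a1, the chain present in 2 copies per molecule, was at 28.9, 21.2, 54.8, 38.4 and 12.3 FPKM in control tumors and 20.7, 54.6, 34.2, 31.9 and 13.0 FPKM in Villin-WlscKO tumors. Col1a2, its partner chain, was at 38.1, 25.9, 44.2, 49.7 and 18.1 FPKM in control and 24.4, 64.3, 60.6, 33.4 and 18.4 FPKM in Villin-WlscKO tumors. In each genotype tumor 5 was lowest for both chains, while the highest Col1a2 values, above every control tumor, were those of Villin-WlscKO tumors 2 and 3. The log2 change was 0.00 ± 0.43 for Col1a1 and 0.11 ± 0.38 for Col1a2, and the 95% intervals, 0.517 to 1.94 for Col1a1 and 0.601 to 1.94 for Col1a2 as folds, left room for changes in either direction. The ratio of Col3a1 to Col1a1 ran from 7.08 to 14.9 in control and from 9.96 to 22.6 in Villin-WlscKO tumors, with overlap.

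The type V chains, which sit inside type I fibrils and limit their width, were lower in level. Col5a1 averaged 8.72 ± 3.82 FPKM in control and 6.76 ± 3.11 FPKM in Villin-WlscKO tumors, Col5a2 13.2 ± 5.63 and 11.5 ± 5.74 FPKM, and Col5a3 4.45 ± 4.43 and 3.46 ± 1.71 FPKM. Their log2 changes were -0.34, -0.22 and -0.08, with adjusted p from 0.614 to 0.938 by limma. The large SD of Col5a3 in control tumors came from tumor 3 at 12.1 FPKM, the others being at 1.07 to 4.01 FPKM. Col11a2, a chain of the type XI fibrils of cartilage, was low at 0.309 to 1.44 FPKM over all 10 tumors. Col27a1, a fibril-forming chain placed among the other types here, was at 1.93 ± 0.531 and 1.29 ± 0.441 FPKM, with a log2 change of -0.35 and an adjusted p of 0.239.

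**Figure D3:**
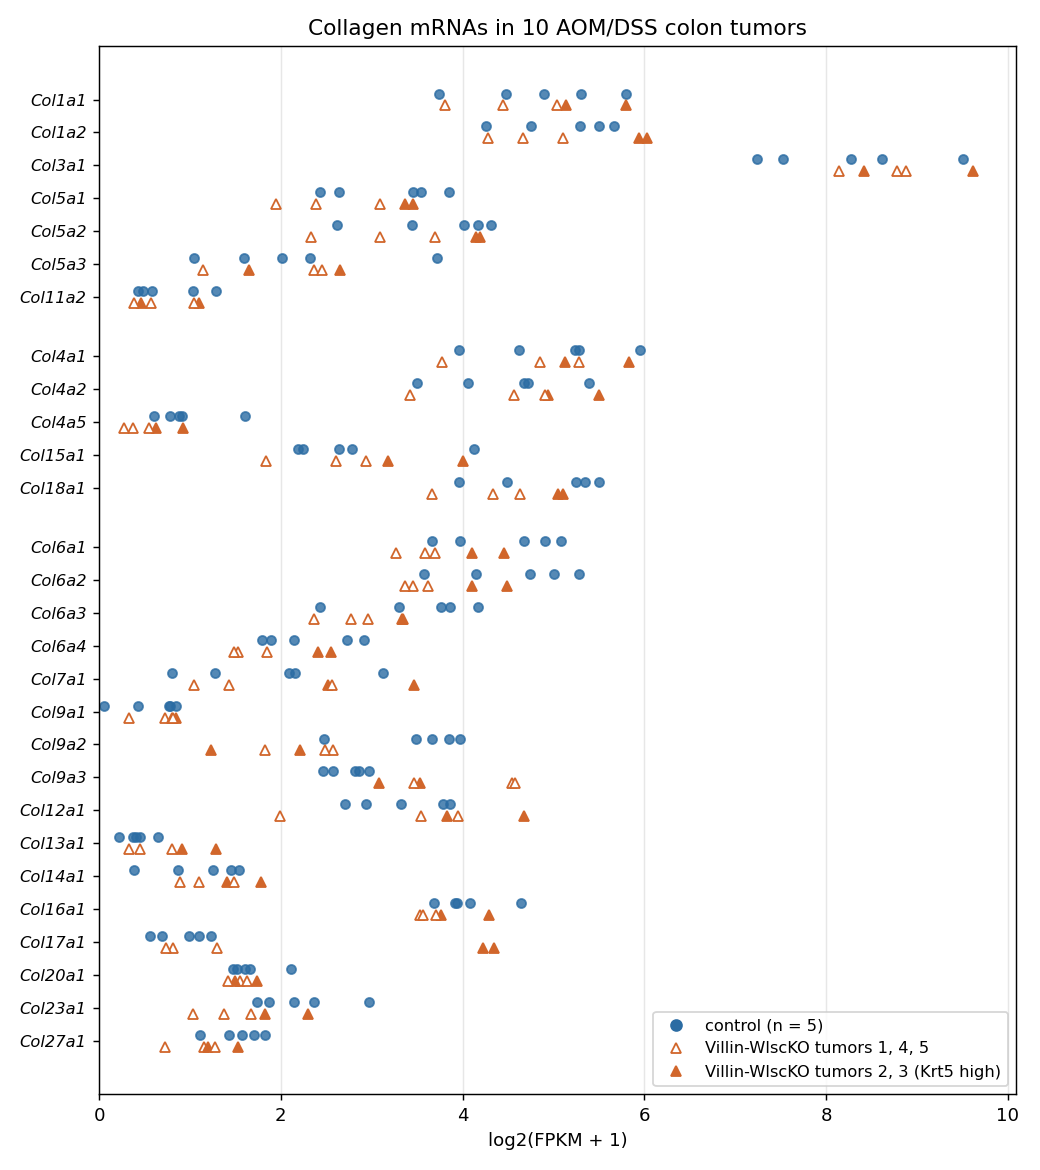
Level of each collagen gene (y axis, by class from top: fibrillar, basement membrane, other) as log2(FPKM + 1) (x axis) in 5 control tumors (circles) and 5 Villin-WlscKO tumors (triangles), filled for tumors 2 and 3, in which Krt5 was high. Col3a1 lies far above all other chains, the circles and triangles overlap for all genes but Col9a3, and the filled triangles of Col17a1 stand apart from every other tumor.

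The basement membrane chains had 0 of 5 genes past limma's test, beside 10.9% of all genes tested. At an unadjusted p under 0.05 there were also 0, beside 4308 of 16757 genes. With so few genes and a median standard error of 0.42, this count says little about them. The chains had 2 changes above 0, 3 below and a median of -0.04. Col4a1 and Col4a2, whose products join in 1 heterotrimer of every basement membrane, lie head to head on chromosome 8, Col4a1 on the minus strand at chr8:11198423-11312826 and Col4a2 on the plus strand at chr8:11312805-11449287 (GENCODE M21, GRCm38), sharing 22 bases at their starts. Col4a1 was at 38.0, 23.7, 61.0, 36.8 and 14.6 FPKM in control and 27.8, 56.0, 33.9, 37.8 and 12.7 FPKM in Villin-WlscKO tumors. Col4a2 was at 24.5, 15.7, 40.9, 25.3 and 10.3 FPKM in control and 22.7, 44.4, 29.6, 28.9 and 9.67 FPKM in Villin-WlscKO tumors. Both were lowest in tumor 5 of either genotype and highest in control tumor 3 and Villin-WlscKO tumor 2, and neither change passed the test (log2 -0.04 ± 0.42 and 0.20 ± 0.42, limma's adjusted p 0.968 and 0.818).

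While each chain overlapped between groups, their ratio did not. Col4a1 to Col4a2 was 1.55, 1.51, 1.49, 1.45 and 1.42 in control tumors 1 to 5 and 1.22, 1.26, 1.15, 1.31 and 1.31 in Villin-WlscKO tumors 1 to 5. The means were 1.48 ± 0.0514 and 1.25 ± 0.0670 (SD, n = 5), and every control tumor was above every Villin-WlscKO tumor. From the lowest to the highest tumor of a group the ratio differed by 1.09-fold in control and 1.14-fold in Villin-WlscKO, while Col4a1 itself differed by 4.18-fold and 4.42-fold. This was 1 of 7 chain ratios computed and is given as a description with no test. Among single genes, 10.1% of those tested showed no overlap, and the share for ratios of gene pairs was not computed. How the bases shared by the genes were counted is not given in the sources used here, the study's methods name default parameters and no strand setting, and the part of either in the ratio was not tested.

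The ratios of Col1a2 to Col1a1, Col6a1 to Col6a2, Col6a3 to Col6a2, Col3a1 to Col1a1 and Col5a2 to Col5a1 overlapped between the groups, and that of Col9a3 to Col9a2 did not. The ratio of Col6a1 to Col6a2 averaged 0.941 ± 0.0794 in control and 1.01 ± 0.0675 in Villin-WlscKO tumors, with overlap and a small spread within each group.

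**Figure D4:**
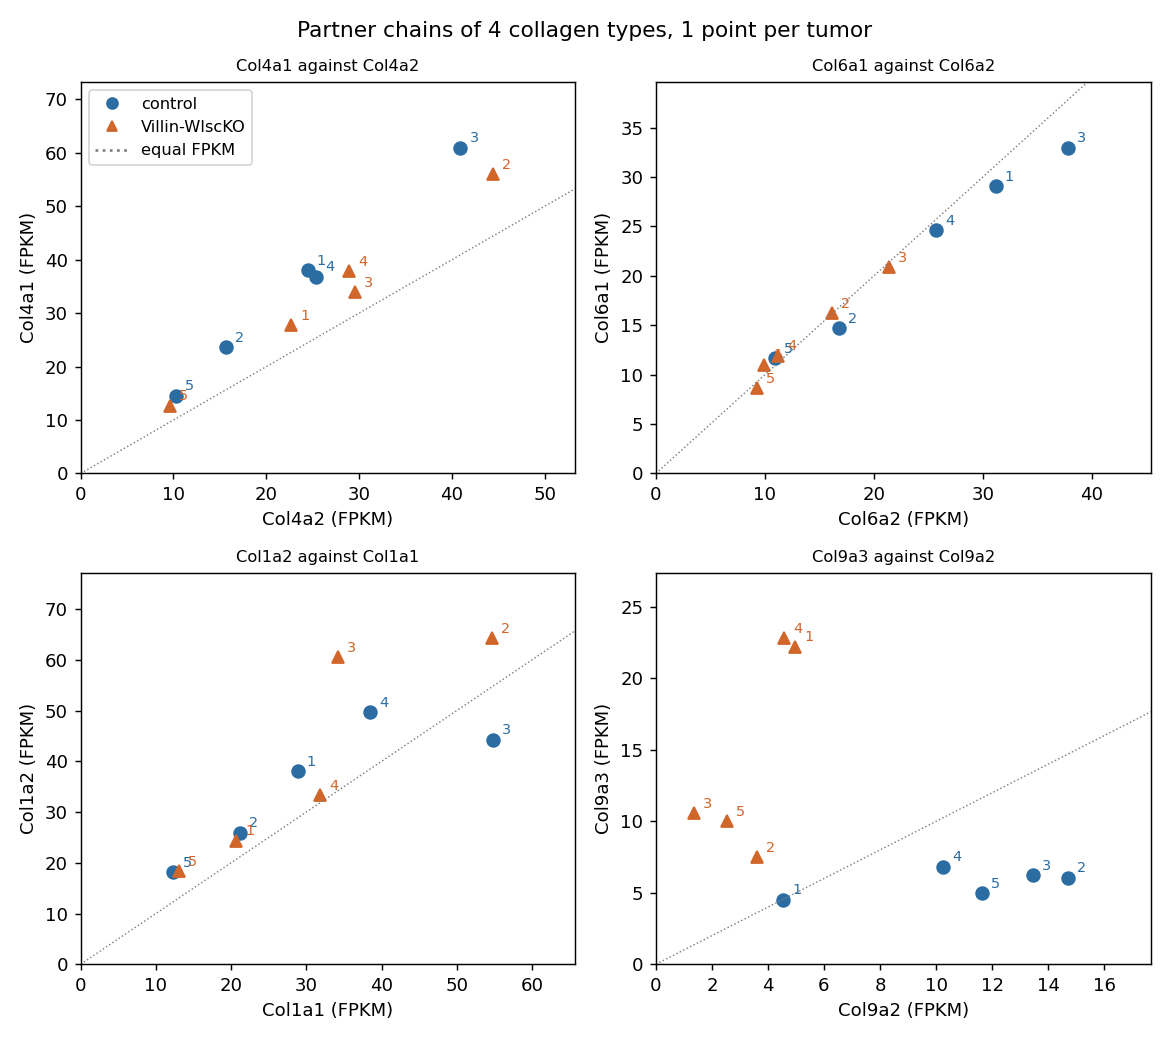
FPKM of 1 chain (y axis) against its partner chain (x axis) for types IV, VI, I and IX in each of 10 tumors, with control as circles, Villin-WlscKO as triangles, tumor numbers beside the points and a dotted line at equal FPKM. The type IV and type VI points follow straight lines from near the origin, with control above Villin-WlscKO in type IV (ratios of 1.42 to 1.55 against 1.15 to 1.31), while the type IX points form separate groups with no line.

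Col18a1, the source of the fragment endostatin and a chain of epithelial and vessel basement membranes, was at 36.9, 21.5, 39.7, 44.1 and 14.6 FPKM in control and 19.1, 32.0, 33.5, 23.8 and 11.7 FPKM in Villin-WlscKO tumors. The highest 3 values were those of control tumors, but the lowest control tumor was below 4 of the 5 Villin-WlscKO tumors, and the log2 change of -0.35 ± 0.35 did not pass (limma's adjusted p = 0.583). Its gene overlaps Slc19a1 on the other strand by 8825 bases. Col15a1, the related chain of vessel and muscle basement membranes, was at 6.98 ± 5.40 and 7.50 ± 4.71 FPKM. Col4a5, an X-linked chain of kidney and other specialized basement membranes, was at 1.00 ± 0.602 FPKM in control and 0.480 ± 0.269 FPKM in Villin-WlscKO tumors, with a log2 change of -0.41 and an adjusted p of 0.231 by limma.

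All 4 chains of type VI collagen, which builds beaded filaments around cells close to basement membranes, had changes below 0, and none passed the test. Col6a1 and Col6a2 lie 85161 bases apart on chromosome 10, and Col6a3 is on chromosome 1. The bases upstream of Col6a2 and Col6a3 are shown because these chains are built into the same molecule although their genes are on different chromosomes (RefSeq, GRCm38.p6, chr10:76623631-76623880 and chr1:90843972-90844221, both minus strand, 250 bases before a start site, with GGGCGG on either strand in capitals).
Col6a2: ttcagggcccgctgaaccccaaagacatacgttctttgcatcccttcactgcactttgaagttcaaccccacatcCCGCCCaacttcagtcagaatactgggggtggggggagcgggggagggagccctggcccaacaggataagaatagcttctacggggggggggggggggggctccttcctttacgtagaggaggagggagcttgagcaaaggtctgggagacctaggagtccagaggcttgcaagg
Col6a3: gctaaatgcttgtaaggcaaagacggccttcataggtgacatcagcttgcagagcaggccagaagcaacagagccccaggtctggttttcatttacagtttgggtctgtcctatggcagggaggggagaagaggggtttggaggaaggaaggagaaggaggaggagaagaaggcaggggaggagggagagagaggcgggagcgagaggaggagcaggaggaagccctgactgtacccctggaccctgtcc
The Col6a2 stretch holds GGGCGG, the letters of a GC box, in reverse, and that of Col6a3 holds neither these letters nor CCAAT or TATAA.

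Col6a2 was at 31.2, 16.8, 37.8, 25.7 and 10.9 FPKM in control and 9.96, 16.2, 21.4, 11.2 and 9.28 FPKM in Villin-WlscKO tumors. Col6a1 was at 29.1, 14.7, 33.0, 24.6 and 11.7 FPKM in control and 11.0, 16.2, 20.9, 11.9 and 8.65 FPKM in Villin-WlscKO tumors. Control tumors 1, 3 and 4 were above every Villin-WlscKO tumor for both chains, while control tumors 2 and 5 lay within the Villin-WlscKO range. The ratio of the group means was 0.556 for Col6a2 and 0.608 for Col6a1, with log2 changes of -0.75 ± 0.33 and -0.64 ± 0.31 and limma's adjusted p of 0.187 and 0.221.

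Col6a3, the longest chain, was at 12.6, 8.82, 16.9, 13.5 and 4.41 FPKM in control and 6.77, 9.07, 9.14, 5.81 and 4.14 FPKM in Villin-WlscKO tumors, again with overlap through control tumors 2 and 5. Its log2 change was -0.55 ± 0.32 (adjusted p = 0.306 by limma), and that of Col6a4, at 4.15 ± 1.83 and 3.09 ± 1.41 FPKM, was -0.33 ± 0.28. The 95% intervals reached from -1.48 to -0.01 for Col6a2, from -1.32 to 0.04 for Col6a1 and from -1.25 to 0.15 for Col6a3 on the log2 scale. Among 9 tested fibroblast markers 1 passed the test, beside 10.9% of all genes tested. It was Islr, which fell from 22.2 ± 8.40 to 6.09 ± 1.77 FPKM (log2 -1.67, adjusted p = 0.00257 by limma). Its part in the type VI values was not tested. The fibroblast list as a whole had 4 changes above 0 and 5 below, with a median of -0.03.

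Both collagen genes that passed the test encode chains of type IX collagen, which in cartilage is a heterotrimer that coats type II fibrils. Col9a2 was at 4.55, 14.7, 13.4, 10.3 and 11.6 FPKM in control tumors and 4.97, 3.61, 1.35, 4.58 and 2.54 FPKM in Villin-WlscKO tumors. Of the control tumors 4 were above 10 FPKM and above every Villin-WlscKO tumor, and control tumor 1 lay within the range of the latter. The means were 10.9 ± 3.95 and 3.41 ± 1.49 FPKM, a ratio of 0.312, and the log2 change was -1.43 ± 0.32 (limma's adjusted p = 0.0193). Without control tumor 2, the log2 change was -1.30 and the adjusted p 0.0514, and without Villin-WlscKO tumors 2 and 3 they were -1.20 and 0.0784. The gene is on chromosome 4 (chr4:121039385-121055322, plus strand, GENCODE M21). The bases just upstream of its annotated start are shown because it was the chain with the largest change among those past the test (RefSeq, GRCm38.p6, chr4:121039316-121039384, plus strand, 69 bases, with no searched letters in them).
Col9a2: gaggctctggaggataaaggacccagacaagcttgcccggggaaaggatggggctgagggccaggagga

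Col9a3 was at 4.52, 6.05, 6.24, 6.82 and 4.95 FPKM in control tumors and 22.2, 7.48, 10.6, 22.8 and 10.03 FPKM in Villin-WlscKO tumors. Every Villin-WlscKO tumor was above every control tumor, with tumors 1 and 4 far above the other 3. The means were 5.72 ± 0.952 and 14.6 ± 7.30 FPKM, a ratio of 2.56, and the log2 change was 1.102 ± 0.28 (limma's adjusted p = 0.0324). The call was lost when any of 6 tumors was left out (control tumors 1, 2, 4 and 5 and Villin-WlscKO tumors 1 and 4), with adjusted p from 0.0550 to 0.0738, while the direction stayed. The ratio of Col9a3 to Col9a2 was 0.992, 0.411, 0.464, 0.666 and 0.426 in control and 4.47, 2.07, 7.80, 4.98 and 3.96 in Villin-WlscKO tumors. The order of the measured values thus turned over between the groups, with control tumor 1 near equality. Each chain had entered the test on its own, and the ratio restates both changes.

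A limit applies to Col9a3 and to its ratio to Col9a2. On chromosome 2 the gene (chr2:180597790-180622189, plus strand) overlaps the tail of Tcfl5, which encodes a transcription factor, on the minus strand (chr2:180621956-180642708) by 234 bases. Tcfl5 has no row in the table, and the locus that the authors assembled for Col9a3 runs on to the far end of Tcfl5, so that reads of both genes may have entered the Col9a3 value and cannot be told apart. The third chain, Col9a1, was at 0.521 ± 0.321 and 0.642 ± 0.219 FPKM (log2 0.13, adjusted p = 0.713 by limma). Of 7 cartilage markers, Chad alone was in the table, at 0.372 to 1.44 FPKM in control and 0.886 to 3.06 FPKM in Villin-WlscKO tumors, and Acan, Matn1, Matn3, Hapln1, Comp and Cnmd were not analysed here.

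The other fibril-associated chains did not pass. Col16a1, a chain found near fibrils and basement membranes, was the most abundant of them, at 11.9, 14.1, 15.9, 23.9 and 14.3 FPKM in control and 10.5, 12.6, 18.6, 10.8 and 12.0 FPKM in Villin-WlscKO tumors. Control tumor 4 was the highest and Villin-WlscKO tumor 3 the second, and the log2 change was -0.28 ± 0.19 (limma's adjusted p = 0.397). Col12a1, a chain of dense tissue under tension, averaged 9.51 ± 3.57 and 13.1 ± 7.73 FPKM, and its Villin-WlscKO values spread from 2.99 FPKM in tumor 5 to 24.5 FPKM in tumor 2. Col14a1, which is related to it, averaged 1.23 ± 0.664 and 1.58 ± 0.613 FPKM, and Col20a1 2.23 ± 0.629 and 1.97 ± 0.256 FPKM. The Col20a1 row had the same values as that of 9230112E08Rik.

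The transmembrane chain Col17a1, which anchors basal keratinocytes to the basement membrane as part of the hemidesmosome, had a change of 1.37 ± 0.73 that rested on 2 tumors. It was at 0.473, 0.988, 0.616, 1.14 and 1.35 FPKM in control and 1.47, 17.7, 19.3, 0.752 and 0.668 FPKM in Villin-WlscKO tumors. Villin-WlscKO tumors 2 and 3 were far above all other tumors, the other 3 overlapped with control, and limma's adjusted p was 0.275. The stretch before the Col17a1 start is shown because this chain had the largest change of those not past the test (RefSeq, GRCm38.p6, chr19:47692095-47692292, minus strand, 198 bases, with TATAA in capitals).
Col17a1: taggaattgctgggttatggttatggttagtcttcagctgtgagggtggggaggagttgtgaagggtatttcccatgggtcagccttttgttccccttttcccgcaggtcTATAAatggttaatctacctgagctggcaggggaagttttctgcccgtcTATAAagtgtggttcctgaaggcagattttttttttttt
Keratin genes of stratified epithelium were high in the same 2 tumors: Krt5 was at 469.5 and 669 FPKM there and at most 0.315 FPKM in the other 8, and Trp63, which encodes the p63 factor of basal cells, was at 16.3 and 17.0 FPKM there and at most 0.0649 FPKM elsewhere. All 5 squamous markers in the table had a change above 0, as did 8617 of 16757 genes tested. Of the 5, 0 passed limma's test, beside 10.9% of all genes tested. At an unadjusted p under 0.05 there were also 0, beside 4308 genes. The sum of the squamous markers was 26.8 to 180.1 FPKM in control tumors and 963 and 1241 FPKM in Villin-WlscKO tumors 2 and 3. In the other 3 Villin-WlscKO tumors it was 10.6 to 48.2 FPKM. Krt5 was listed at 0 in 1 control tumor and Trp63 in 2 control tumors and 1 Villin-WlscKO tumor.

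Col7a1, the chain of the anchoring fibrils that tie basement membranes of stratified epithelium to the tissue below, was at 1.43, 3.45, 7.72, 3.26 and 0.740 FPKM in control and 1.69, 10.03, 4.73, 4.89 and 1.07 FPKM in Villin-WlscKO tumors. Its highest value was that of Villin-WlscKO tumor 2, but tumor 3 was below control tumor 3 and below Villin-WlscKO tumor 4, unlike in Col17a1. The log2 change was 0.31 ± 0.52 (limma's adjusted p = 0.765), and the row had the same values as Mir711. Col13a1, a transmembrane chain of cell contacts, was low at 0.344 ± 0.148 and 0.739 ± 0.469 FPKM, with a change of 0.34 and an adjusted p of 0.284 by limma. Villin-WlscKO tumors 2 and 3 were its highest tumors as for Col17a1, at 0.889 to 1.44 FPKM with at most 0.741 FPKM in any other. Col23a1, also transmembrane, was at 2.33, 2.67, 3.41, 6.84 and 4.14 FPKM in control and 1.58, 2.54, 3.91, 1.04 and 2.18 FPKM in Villin-WlscKO tumors. Of the latter, 3 were below every control tumor and 2 within the control range, and the log2 change was -0.58 ± 0.28 (limma's adjusted p = 0.220).

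Without Villin-WlscKO tumors 2 and 3, 27 collagen genes were tested, 22 changes were below 0 and 5 above, and the median was -0.41. Tumors 2 and 3 had held the highest value of their group for 12 and 14 of the 28 chains. Tumor 5, which stayed in, held the lowest for 22. The downward move of most changes thus followed from leaving out these tumors and is no separate result. Of these, only Col9a3 passed (log2 1.46, limma's adjusted p = 0.0137), beside 6.63% of the 16599 genes tested. Col1a1, Col1a2, Col4a2, Col7a1, Col12a1 and Col15a1 then had changes below 0, at -0.41, -0.41, -0.17, -0.21, -0.16 and -0.34, and Col13a1 was under the filter.

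Genes that act on collagen were read from the same fit. Of 16 tested genes for folding and modification, 0 rose and 1 fell, beside 6.12% of all genes tested higher and 4.75% lower. Their median change was 0.04. The gene that fell was Colgalt1, which adds galactose to hydroxylysine, at 67.2 ± 8.87 and 52.9 ± 2.95 FPKM (log2 -0.33, limma's adjusted p = 0.0419). That call was lost in 9 of 10 fits that left out 1 tumor, all but the one without control tumor 5, and after rescaling to an equal FPKM sum, where P4hb, a subunit of prolyl 4-hydroxylase, was past the test instead and higher (log2 0.33, adjusted p = 0.0432). Serpinh1, the collagen chaperone HSP47, was at 32.3, 18.6, 34.5, 38.8 and 13.9 FPKM in control and 14.8, 32.6, 28.6, 25.7 and 9.09 FPKM in Villin-WlscKO tumors, with tumor 5 lowest in each genotype as for type I and type IV chains (log2 -0.34, adjusted p = 0.626).

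Of 9 genes for trimming and crosslinking, 1 rose and 0 fell, beside 6.12% of all genes tested higher and 4.75% lower. Their median change was -0.07. Tgm2, a transglutaminase that crosslinks many proteins besides matrix, was at 27.7 ± 10.7 FPKM in control and 122 ± 19.98 FPKM in Villin-WlscKO tumors, with no overlap (log2 2.16, limma's adjusted p = 0.000323). Lox, which starts collagen crosslinks by oxidizing lysines, was at 2.75 ± 1.43 and 3.16 ± 1.72 FPKM (log2 0.12, adjusted p = 0.861). Of 17 genes for proteins that bind fibrils or form other fibers, 1 rose and 0 fell, beside the same shares of all genes. Their median was 0.16. Fbln1, a protein of elastic fibers and basement membranes, was that gene, at 12.9 ± 2.90 and 23.2 ± 2.61 FPKM (log2 0.82, limma's adjusted p = 0.00550), while Sparc, a collagen-binding protein, was at 90.3 ± 38.8 and 86.6 ± 43.3 FPKM.

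Of 17 laminins, nidogens and other partners of basement membrane collagen, 0 rose and 1 fell, beside 6.12% of all genes tested higher and 4.75% lower. Their median was -0.22. Fras1, which supports the adhesion of epithelium to its underlying matrix, was the gene that fell, at 2.90 ± 1.05 and 0.932 ± 0.883 FPKM (log2 -1.07, limma's adjusted p = 0.0434). Fras1 passed in 2 of 10 fits that left out 1 tumor (adjusted p 0.0114 to 0.0978), and not after rescaling to an equal FPKM sum (adjusted p = 0.0647) or without Villin-WlscKO tumors 2 and 3 (0.13). Of 8 collagen receptors, among them the integrins Itga1 and Itga2 and the discoidin receptors, 0 passed limma's test (3 at an unadjusted p under 0.05), with a median of 0.17. Of 5 hemidesmosome genes, 0 passed it as well (3 at an unadjusted p under 0.05), with a median of 0.10. Those 3 were Plec and Dst, which were higher (log2 0.41 and 0.70), and Cd151, which was lower (log2 -0.24). The 3 receptors were Itga2, which was higher, and Itga10 and Ddr1, which were lower. Over all genes tested, 4308 of 16757 were at an unadjusted p under 0.05.

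Of 17 genes of the TGF-beta pathway, a main inducer of collagen transcription in fibroblasts, 0 rose and 3 fell, beside the 4.75% of all genes that were lower, and the median was 0.01. Those that fell were the inhibitory Smad7 (35.5 ± 3.23 and 19.7 ± 3.16 FPKM, log2 -0.83, limma's adjusted p = 0.00118), the receptor Tgfbr1 (log2 -0.35, adjusted p = 0.0357) and the signal carrier Smad2 (log2 -0.27, adjusted p = 0.0266). Smad7 passed in all 10 fits that left out 1 tumor, Smad2 in 6 and Tgfbr1 in 3. Without control tumor 5, without Villin-WlscKO tumor 3, or without Villin-WlscKO tumors 2 and 3, 1 gene of the list fell, and after rescaling to an equal FPKM sum 1 rose and 1 fell. The ligands Tgfb1, Tgfb2 and Tgfb3 did not pass.

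Among the marker lists, 0 of 9 smooth muscle, 0 of 9 endothelial, 0 of 5 macrophage and 0 of 1 cartilage markers passed limma's test, beside 10.9% of all genes tested. At an unadjusted p under 0.05 were 1 macrophage marker and none of the others. Changes were above 0 for 8 of 9 smooth muscle, 4 of 9 endothelial, 2 of 5 macrophage and 1 of 1 cartilage markers, and for 8617 of 16757 genes tested. Of 8 epithelial markers 1, Krt20, rose (log2 0.91, adjusted p = 0.0156 by limma), beside 6.12% of all genes tested. All 8 changes were above 0, and 4 were at an unadjusted p under 0.05, beside 4308 of all 16757 genes tested. The sums of the 8 markers were 6105 to 8613 FPKM in control and 7460 to 9573 FPKM in Villin-WlscKO tumors. In every tumor the epithelial sum was above that of all listed stromal markers.

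The windows around start sites were searched for 4 short motifs. RefSeq windows of 300 bases, 250 before and 50 after the start, were found for 23 of the 28 genes, some with more than 1 start, giving 26 windows beside 32851 for all genes. CCAAT on either strand was in 11 collagen windows (42.3%, against 37.4% of all windows) and TATAA in 5 (19.2% against 24.9%). GGGCGG was in 16 (61.5% against 35.7%), and CTTTGAT, the letters that TCF and LEF factors of the Wnt pathway prefer, in 1 (3.85% against 3.73%), that of Col9a2, outside the bases shown. No test was made of these shares, which describe letters and not sites of binding. Col1a1, Col5a2, Col9a3, Col12a1 and Col14a1 had no entry. The start sites of Col4a1 and Col4a2 are 21 bases apart, and their windows share 78 bases.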

How the data were processed

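RNA of 10 macrodissected colon tumors was sequenced from stranded mRNA libraries. The deposited values are FPKM per gene and tumor, which the authors made with TopHat2 2.1.1 on GRCm38.p5, Cufflinks 2.2.1 and Cuffdiff after FastQC, per the submitters' processing notes and the study's methods. A gene that shares a locus with others can carry the value of that locus. The methods state default parameters and name no strand setting, and the annotation release is not given in the sources used here. FPKM carry no read numbers, so the depth is unknown and precision rests on the spread between tumors. The FPKM sum of a tumor was 1207680 to 1533880.

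R 4.3.3 and limma 3.58.1 were used for the test of genotypes, with log2(FPKM + 1) as the measure (pseudocount 1, mean FPKM of at least 0.5, eBayes with a trend, two-sided, no covariate, Benjamini-Hochberg adjusted p under 0.05 over all 16757 genes tested). A fold change on this scale understates that of low genes. The script was tested on simulated data. Summaries and figures used Python 3.11.15, numpy 2.4.6, pandas 2.3.3 and matplotlib 3.10.9, positions GENCODE M21, and promoters RefSeq on GRCm38.p6, of which only bases outside annotated exons are printed.

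The members, lists and rules were chosen with earlier results of these data known. Values in every tumor are given for collagens past the threshold, the 3 of highest mean in each class, the 5 with the largest change not past it, Col17a1 and Col7a1. From each list, up to 3 genes past the threshold are named, with Serpinh1, Lox and Sparc, and Wls, Xist and Eif2s3y check the labels. Other names were added after values were seen, and the result of 1 marker list is not reported here.

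Alternatives were a pseudocount of 0.1, rescaling to an equal FPKM sum or by median ratios, quantile normalization, other filters, eBayes without trend or robust, tumor quality weights, a replicate block, identical entries counted once, Villin-WlscKO tumors 2 and 3 left out, and each tumor left out in turn. Replicate numbers were not taken to pair tumors, since the sources used here do not say that they do. Deviations from group means correlated at 0.064, -0.087, 0.063, 0.10 and 0.16 between tumors of the same number. Such correlations cannot exclude a pairing.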

Additional observations from a re-analysis of the deposited data

Results flagged for a closer look

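Among 56 combinations of a collagen gene and a genotype, 1 tumor was set far apart from the other 4 of its group: Col9a1 was at 0.261 FPKM in Villin-WlscKO tumor 5 and at 0.656 to 0.796 FPKM in the other 4. The gap took up 0.771 of the range, above the critical value of 0.71. Chance alone gives such a value in about 1 of 20 groups, and Villin-WlscKO tumor 5 was also the lowest of its group for 22 of the 28 collagen genes.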

How the results depend on the processing

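Over 22 other settings, Col9a2 and Col9a3 were the only collagens that ever passed, Col9a2 in 19 settings (adjusted p 0.00476 to 0.0784) and Col9a3 in 15 (0.0137 to 0.0738), each always in its direction, and fibrillar and basement membrane genes past the test stayed at 0. With a replicate block, 0 collagens passed (limma's adjusted p 0.0542 for Col9a3 and 0.0652 for Col9a2), as did 0 basement membrane partners and 2 hemidesmosome genes, both higher. The sources used here do not say whether the numbers pair tumors, and the tumor of the same number was the best match for 2 of 5. Leaving out 1 tumor each gave 0 to 2 collagens, with 0 without control tumor 2 and 1 without control tumor 1, 4 or 5 or Villin-WlscKO tumor 1 or 4, and also 0 to 1 folding genes, 0 to 2 basement membrane partners, 0 to 1 receptors, 0 to 1 hemidesmosome genes and 1 to 3 TGF-beta genes. Without Villin-WlscKO tumors 2 and 3 the counts were 1101 of all genes, 1 collagen, 0 folding genes and 1 TGF-beta gene, and, among others, Col4a2, Col1a2, Col1a1 and Col7a1 turned to -0.17, -0.41, -0.41 and -0.21. The folding list also went to 0 without a trend and with tumor quality weights (to 1 higher in place of 1 lower after rescaling to an equal sum), the basement membrane partners to 0 after rescaling to an equal sum and at a mean of at least 5 FPKM, the receptors to 1 under quantile normalization, and the hemidesmosome list to 1 higher under rescaling to an equal sum and to 1 lower under quantile normalization. Changes near 0 turned sign: Col4a1 to 0.062 after rescaling to an equal sum and 0.17 with tumor quality weights, and Col1a1 to -0.0064 by median ratios and -0.028 under quantile normalization. With 1 tumor left out, Col4a1 ran from -0.30 to 0.26, Col4a2 from -0.045 to 0.51, Col1a2 from -0.10 to 0.34, Col1a1 from -0.27 to 0.26 and Col7a1 from -0.0015 to 0.62. Leaving out Villin-WlscKO tumors 2 and 3 took away the highest value of their group for most chains. The cause of the other shifts was not tested. The median collagen change lay between -0.41 and 0.11 and that of all genes between -0.05 and 0.10. FPKM hold no counts, so that chains under about 1 FPKM have an error from counting that cannot be given.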
